A study of Homo sapiens with 6 samples.

Results

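Nuclear pseudogenes of mitochondrial genes were examined among the RNA regions recovered with the HSP70 chaperones HSPA1A and HSPA8. The RefSeq table for GRCh38 lists 487 nuclear genes whose symbols mark them as copies of a mitochondrial protein gene (MTND, MTCO, MTATP and MTCYB symbols with a P and a number) or of the mitochondrial large ribosomal RNA (MTRNR2L symbols). The table annotates all 487 as pseudogenes, and 25 of them, on 13 chromosomes, shared at least 1 bp with a deposited peak and form the set described here. The 25 genes were thus chosen by the presence of a peak in these lists, and counts of peaks on them are a description with no test.

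The study used FLASH-seq, which maps RNA that ultraviolet light has joined to a protein before its purification, in HEK293 Flp-In T-Rex cells, a human embryonic kidney line with a transgene switched on by tetracycline. The series has 6 libraries of 3 baits, GFP, HSPA1A and HSPA8, each bait carrying a 3xFLAG-HBH tag, with 2 biological replicates a bait. All libraries share the line, 1 µg/ml tetracycline, UV-C light, purification on nickel and streptavidin beads and a short RNase I digestion. The baits came from a tetracycline-induced transgene, and the labels do not say whether a line is 1 clone. The 4 peak lists of HSPA1A and HSPA8 were used, and GFP peaks were not analysed here, so a control bait stands beside none of the values. HSPA8 is the constitutive and HSPA1A the stress-inducible cytosolic HSP70.

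Fragments of the mitochondrial chromosome have been copied into nuclear chromosomes throughout animal evolution. The copies keep the order of the mitochondrial genes, do not code for working respiratory proteins, and can be so alike to their source that a short read matches both. The mitochondrial chromosome itself is transcribed along its whole length on both strands. The heavy-strand transcript, read on the plus strand of the reference, carries both ribosomal RNAs and most messenger RNAs, and the light-strand transcript, on the minus strand, carries the ND6 messenger RNA and several tRNAs. The MTRNR2L genes are copies of the large ribosomal RNA gene RNR2, in which the short open reading frame of the peptide humanin was described.

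Sequence from the reference was at hand for 3 stretches in or beside these genes, from RefSeq on GRCh38.p14, and they are shown 5′ to 3′ because peaks lie on or next to them. The first holds bases 1 to 198 of MTND1P23 (chr1:629062-629259, plus strand), a copy of part of the gene for a subunit of respiratory complex I, with the 87 bases under the peak of HSPA8 replicate 1 in capitals.
MTND1P23, first bases: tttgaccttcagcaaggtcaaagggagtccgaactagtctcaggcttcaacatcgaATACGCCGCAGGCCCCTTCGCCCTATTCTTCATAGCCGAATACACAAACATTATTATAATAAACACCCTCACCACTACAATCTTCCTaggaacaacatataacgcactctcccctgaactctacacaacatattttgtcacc
The hairpin annotated as MIR12136 (chr1:632615-632685, minus strand) starts at the end of MTCO1P12, a copy of the cytochrome c oxidase subunit gene COX1. Capitals mark the 37 bases that lay under a minus-strand peak in each of the 3 lists with a peak there.
MIR12136: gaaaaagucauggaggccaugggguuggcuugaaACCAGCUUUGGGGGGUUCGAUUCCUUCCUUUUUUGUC
The hairpin MIR4485 (chr11:10508270-10508326, minus strand) lies inside MTRNR2L8 and had 0 peaks in each of the 4 lists, although MTRNR2L8 carried the highest score of the set; it is printed without capitals.
MIR4485: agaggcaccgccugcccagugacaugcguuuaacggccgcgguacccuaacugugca

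The lists were uneven before any gene was examined. HSPA1A had 2744 peaks in replicate 1 and 2059 in replicate 2, and HSPA8 had 3131 and 2040. The mitochondrial chromosome carried 129 and 40 of the HSPA1A peaks and 150 and 29 of the HSPA8 peaks. Peaks covered 66.8% and 19.9% of its plus strand for HSPA1A, and 82.2% and 12.9% for HSPA8. Both replicate 1 lists were thus richer in mitochondrial peaks than both replicate 2 lists. Read depth is unknown, and the part of depth in these gaps was not tested. The HSPA8 lists also hold peaks on unplaced scaffolds, which the HSPA1A lists do not, and shares over the chromosomes of all 4 lists are given where that matters.

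A peak lay on 23 of the 487 genes in HSPA1A replicate 1 (4.72%) and on 8 in HSPA1A replicate 2 (1.64%). It lay on 22 in HSPA8 replicate 1 (4.52%) and on 4 in HSPA8 replicate 2 (0.821%). Over all 59679 nuclear genes of the table the shares were 2.98%, 1.97%, 3.00% and 1.27% in the same order, and over the 16564 other nuclear pseudogenes 2.46%, 1.60%, 2.10% and 1.26%. The 487 genes were above both backgrounds in the replicate 1 lists, between them in HSPA1A replicate 2 and below both in HSPA8 replicate 2. Over any list the share was 5.13%, beside 4.84% of all nuclear genes and 3.13% of the other pseudogenes.

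A total of 165 peaks lay on the 25 genes, and 2 of these each lay on a pair of overlapping genes. HSPA1A replicate 1 held 69 of them and replicate 2 held 15, and HSPA8 replicate 1 held 77 and replicate 2 held 4. As a share of each list this was 2.51% and 0.729% for HSPA1A, and 2.46% and 0.196% for HSPA8. HSPA1A had a mean share of 1.62% ± 1.26 (SD, n = 2). The mean for HSPA8 was 1.33% ± 1.60 (SD, n = 2). The difference of 0.294 percentage points did not exceed the replicate spread (two-sided exact permutation of the bait labels, p = 0.667, where 0.33 is the smallest this design can give). This share counts peaks over all 487 annotated genes, so the choice of the 25 does not enter it. Both replicate pairs pointed the same way, with a difference of 0.0553 points between the replicate 1 lists and 0.532 between the replicate 2 lists. Without the MTRNR2L genes the sign turned (-0.0319, exact permutation p = 1), and over the chromosomes of all 4 lists the difference was 0.0951 (exact permutation p = 1). Leaving out HSPA1A replicate 1 gave -0.599 and leaving out HSPA8 replicate 2 gave -0.838, so no order of the baits can be read from these lists.

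Peaks in both replicate 1 lists and in neither replicate 2 list were found on 12 genes, 2.46% of the 487 against 0.411% of all nuclear genes. Peaks in both HSPA1A lists were found on 8 genes (1.64%, against 1.45% of all nuclear genes), and peaks in both HSPA8 lists on 4 (0.821%, against 0.970%). All 4 lists had a peak on 3 genes, MTND6P3, MTRNR2L2 and MTRNR2L8 (0.616%, against 0.860%). A single list supported 4 genes (0.821%, against 2.71%). Of the 69 peaks of HSPA1A replicate 1, 59 (85.5%) overlapped a peak of HSPA8 replicate 1 on the same strand, and 60 of the 77 (77.9%) did so in the other direction. Over all peaks of these lists the shares were 58.3% and 49.98%, and over the chromosomes of all 4 lists 58.3% and 56.3%. Of the same 69 peaks, 12 (17.4%) overlapped a peak of HSPA1A replicate 2, against 47.6% over all peaks, a share limited by the 15 peaks of that list on these genes. Of those 15 peaks, 14 (93.3%) overlapped one of HSPA1A replicate 1, against 72.6% over all peaks. Peaks on neighbouring copies are not independent, and these shares were not tested. Of the 4 peaks of HSPA8 replicate 2, 3 overlapped a peak in each other list.

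**Figure D1:**
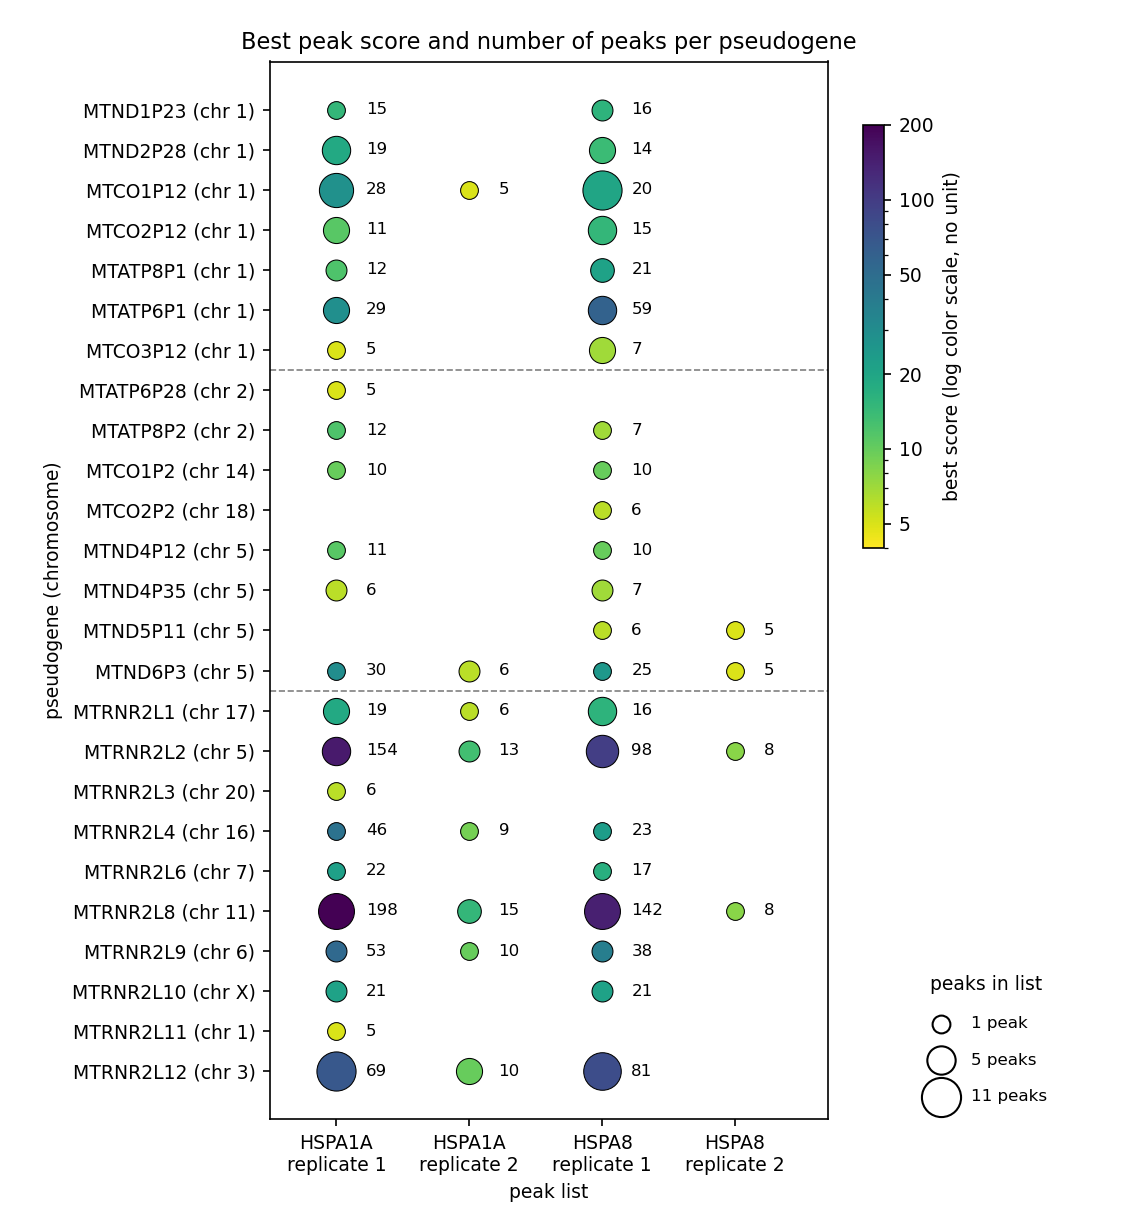
Best authors' score (number and color, log color scale, no unit) and number of peaks (circle area) for each of the 25 pseudogenes (rows, with chromosome) in each of the 4 peak lists (columns); dashed lines separate the chromosome 1 copy, the other copies of protein genes and the MTRNR2L genes. The replicate 1 columns are nearly full with 23 and 22 genes, the replicate 2 columns hold 8 and 4, and MTRNR2L8, MTRNR2L2 and MTRNR2L12 reach the highest scores.

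The families were unevenly represented. The copies of RNR2 stood out by share, with 10 of the 13 MTRNR2L genes carrying a peak, against 15 of the 474 copies of protein genes. Among the complex I genes, ND4 had 2 of 40 copies, and ND1, ND2, ND5 and ND6 had 1 each of 37, 41, 45 and 36. Among the oxidase genes, COX1 had 2 of 58 copies, COX2 2 of 34 and COX3 1 of 47. The ATP synthase genes ATP6 and ATP8 had 2 of 31 and 2 of 4. CYTB, ND3 and ND4L had none of 45, 25 and 31 copies. Of the 25, 9 matched the length of their source gene within 15 bp, as did 131 of the 462 others.

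Peaks were also scored by the authors, on a scale whose meaning is not given, so scores are compared within a list. Peaks on the set had scores from 4 to 198 with a median of 13 in HSPA1A replicate 1, where the list median was 10. They ran from 5 to 142 with a median of 12 in HSPA8 replicate 1, with a list median of 10. In HSPA1A replicate 2 they ran from 5 to 15 with a median of 6 beside a list median of 13, and in HSPA8 replicate 2 from 5 to 8 with a median of 6.5 beside a list median of 22. Peaks on these genes thus lay mostly at or above the middle of the replicate 1 lists (49 of 69 and 47 of 77) and below the middle of the replicate 2 lists (2 of 15 and 0 of 4 at or above it).

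The matching place on the mitochondrial chromosome was found from the order and ends of neighbouring copies in the gene table, with no sequence comparison. It was placed for 18 of the 25 genes. The other 7, MTRNR2L2, MTRNR2L6, MTRNR2L8, MTRNR2L9, MTRNR2L12, MTCO1P2 and MTCO2P2, could not be placed in this way. The 18 placed genes gave 38 pairs of a gene and a list with a peak. In 38 of these 38 pairs the same list had a mitochondrial peak at the matching place on the matching strand. By single peaks this held for 92 of 93, and the exception was a peak with score 8 on MTRNR2L1 in HSPA1A replicate 1. Most of the mitochondrial plus strand lay under peaks in the replicate 1 lists, and the match was not compared with any other placement. How reads that match several places were treated is not given in the sources used here, so a peak on a copy and a peak on its source cannot be told apart as separate RNAs.

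One copy on chromosome 1 held the most genes with peaks. It runs from 629062 to 634922 (5861 bp) and carries MTND1P23, MTND2P28, MTCO1P12, MTCO2P12, MTATP8P1, MTATP6P1 and MTCO3P12, in the order and orientation of positions 3891 to 9751 of the mitochondrial chromosome. The offset between the chromosomes stayed between 625169 and 625175 across the ends of its full-length genes. The stretch held 29 and 1 peaks for HSPA1A replicates 1 and 2, and 38 and 0 for HSPA8. The matching mitochondrial stretch held 51, 4, 59 and 1 in the same order. Both replicate 1 lists were dense on both chromosomes and both replicate 2 lists nearly empty on both. On the plus strand, peaks covered 34.0% of the copy and 71.1% of the mitochondrial stretch in HSPA1A replicate 1, and 45.4% and 83.1% in HSPA8 replicate 1.

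**Figure D2:**
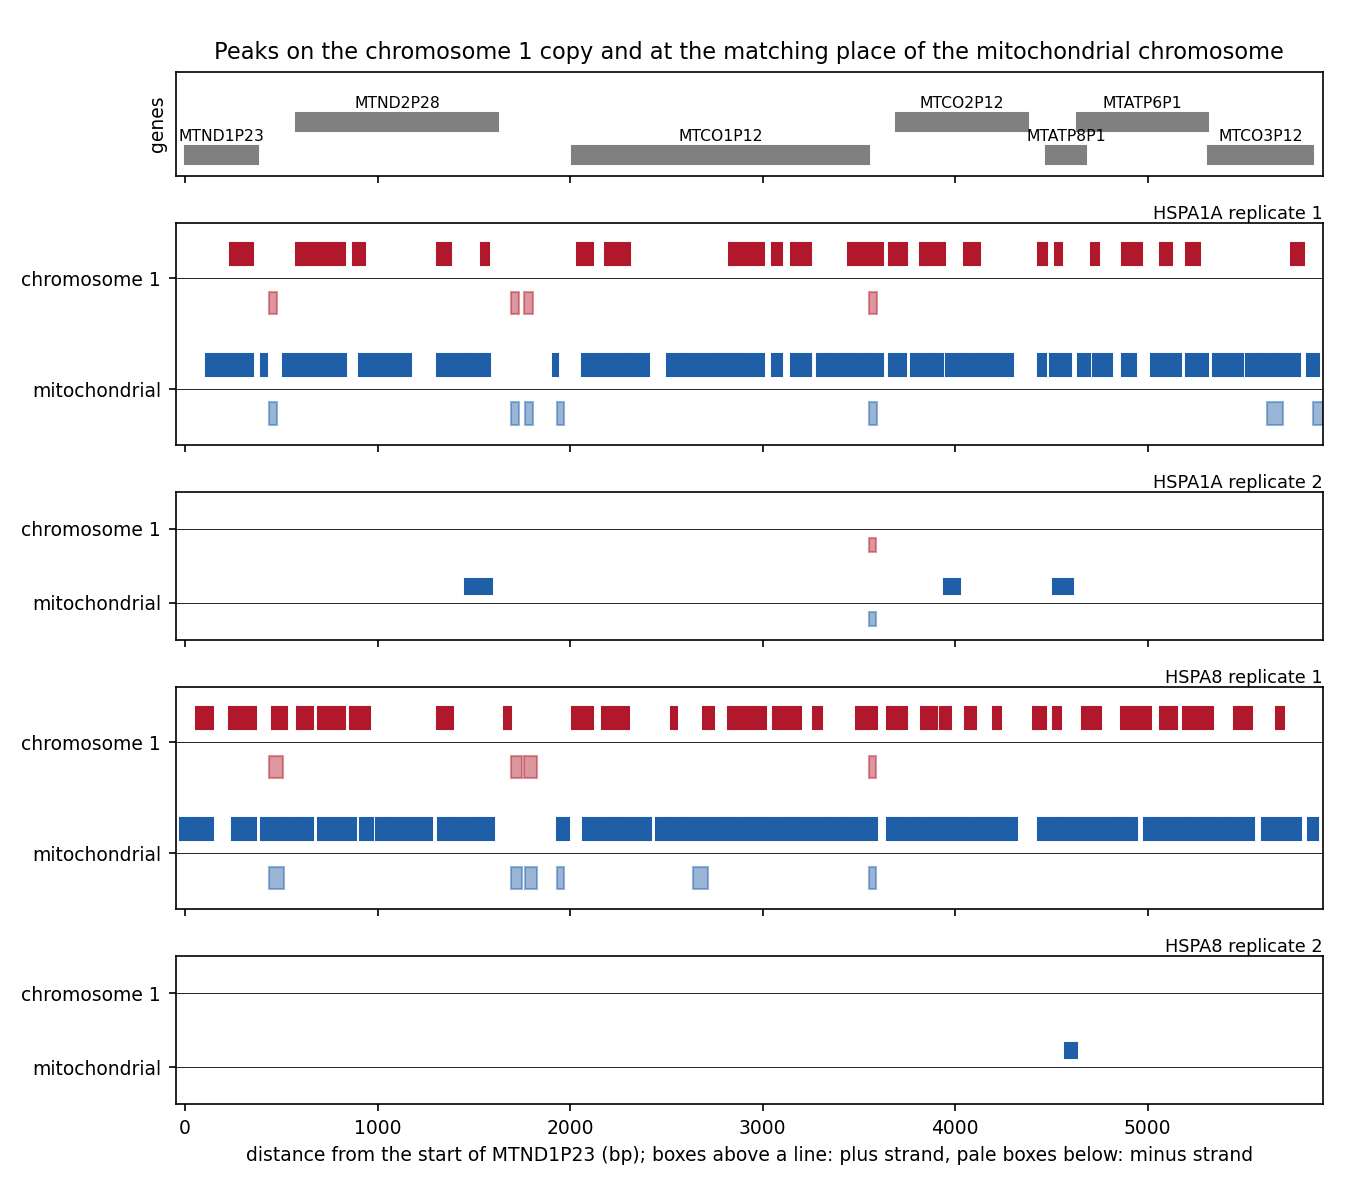
Peaks of each list along the chromosome 1 copy (red) and at the matching place of the mitochondrial chromosome (blue), by distance in bp from the start of MTND1P23, with plus-strand peaks above and minus-strand peaks in pale below each line, and the 7 genes on top. The replicate 1 lists have 29 and 38 peaks on the copy, of which 29 and 37 overlap a peak of the denser mitochondrial row of 51 and 59. HSPA1A replicate 2 has 1 peak on the copy and HSPA8 replicate 2 has 0.

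The copies of the genes for complex I, oxidase and ATP synthase subunits had modest scores. MTND1P23 had a best score of 15 in HSPA1A replicate 1 and 16 in HSPA8 replicate 1. MTND2P28, from ND2, had 5 peaks with a best score of 19 in HSPA1A replicate 1 and 4 peaks with a best score of 14 in HSPA8 replicate 1. Neither gene had a peak in a replicate 2 list. The peak printed in capitals for MTND1P23 (score 14) corresponds to mitochondrial positions 3948 to 4034, where the same list had a peak from 3956 to 4034 with the same score.

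MTCO1P12 is a full-length copy of COX1, which encodes the catalytic oxidase subunit. It had 8 peaks with a best score of 28 in HSPA1A replicate 1 and 11 with a best score of 20 in HSPA8 replicate 1. Its single peak in HSPA1A replicate 2 had a score of 5 and shared 3 bp with the gene, lying on the minus strand over MIR12136. MTCO2P12 had best scores of 11 and 15 in the replicate 1 lists, and MTCO3P12 had 5 and 7. The peak of score 7 shared 23 bp with MTCO3P12 and also lay on MTATP6P1, and the other peaks on MTCO3P12 scored 5. None of these 3 oxidase copies had a plus-strand peak in a replicate 2 list.

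MTATP6P1, a full-length copy of the ATP6 gene for a membrane subunit of ATP synthase, held the highest score of the chromosome 1 copy. Its best peak scored 29 in HSPA1A replicate 1 and 59 in HSPA8 replicate 1. The matching mitochondrial peaks, which start at positions 8760 and 8755, scored 23 and 37. In both lists the copy's peak thus scored above each single mitochondrial peak it overlapped. It spanned 104 and 155 bp and shared 71 and 78 bp with these mitochondrial peaks. In HSPA8 replicate 1 it also overlapped a second mitochondrial peak, of score 24. The part of peak width in these scores was not tested. MTATP8P1, whose source gene ATP8 overlaps ATP6, had best scores of 12 and 21, from peaks that shared 2 and 19 bp with it and lay mostly on the copies of TRNK and ATP6.

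The peaks on the minus strand of this copy matched their source more closely than those on the plus strand. The minus strand held 4, 1 and 4 peaks in HSPA1A replicate 1, HSPA1A replicate 2 and HSPA8 replicate 1. In each of these 9 cases a mitochondrial peak of the same list had both edges within 5 bp and the same score. On the plus strand this held for 4 of 25 peaks in HSPA1A replicate 1 and for 2 of 34 in HSPA8 replicate 1. The minus-strand peaks lay on copies of TRNQ, TRNA, TRNN and TRNS1, the light-strand tRNA genes for glutamine, alanine, asparagine and a serine. TRNQ scored 11 in HSPA1A replicate 1 and 8 in HSPA8 replicate 1, TRNA scored 10 in both, and TRNN scored 10 and 19. Over TRNS1 the scores were 13, 5 and 16 in the 3 lists, and this is the peak over the capitals of MIR12136. A further light-strand tRNA gene, TRNY for tyrosine, had mitochondrial minus-strand peaks with scores of 11 and 20 in the replicate 1 lists and no minus-strand peak on the copy.

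The copies of protein genes outside chromosome 1 numbered 8. MTND4P12 and MTND5P11 lie in reverse order within one copy on chromosome 5. MTND4P12, from ND4, had 1 peak in each replicate 1 list, which scored 11 with HSPA1A and 10 with HSPA8. MTND4P35, another ND4 copy on the same chromosome, had 2 peaks in each replicate 1 list, with best scores of 6 and 7. One of the peaks of MTND4P35 in each list overlapped that of MTND4P12 on the ND4 scale, with the MTND4P12 peak given first: 11679 to 11735 and 11665 to 11725 in HSPA1A replicate 1, and 11671 to 11739 and 11667 to 11697 in HSPA8 replicate 1. The other peak of MTND4P35 lay at the places of 10830 to 10856 and 10829 to 10857, where MTND4P12 had none.

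MTND5P11 had a peak in both HSPA8 lists and in neither HSPA1A list. Those peaks shared neither place nor strand. In HSPA8 replicate 1 it lay on the minus strand (score 6), at the place of mitochondrial positions 13212 to 13231. In HSPA8 replicate 2 it lay on the plus strand (score 5), at the place of positions 14106 to 14148 on the minus strand, where the mitochondrial peak scored 6. The gene thus counts for both replicates by symbol and not by site.

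MTND6P3 was in all 4 lists, yet its peaks shared only 1 to 7 bp with the gene and lay on the adjoining copy of TRNE, the light-strand tRNA gene for glutamate. On the minus strand it scored 30, 5 and 25 in HSPA1A replicate 1, HSPA1A replicate 2 and HSPA8 replicate 1, where the mitochondrial peaks scored 31, 5 and 25. On the plus strand it scored 6 in HSPA1A replicate 2 and 5 in HSPA8 replicate 2. The mitochondrial peaks with the nearest edges had the same scores, and in HSPA1A replicate 2 a second overlapping one scored 9. Both replicate 1 lists also had a plus-strand peak there, of score 7 with HSPA1A and 6 with HSPA8. Those peaks lay just past the end of MTND6P3 and are not counted for it, so the strands do not separate the replicates. Like MTND6P3, MTATP8P2 on chromosome 2 had only a short overlap, of 2 bp, with a peak on the adjoining copy of TRNK, the lysine tRNA gene. That peak scored 12 in HSPA1A replicate 1 and 7 in HSPA8 replicate 1. The other 23 genes had a peak sharing at least 10 bp with them.

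MTCO1P2 on chromosome 14 had a peak of score 10 in each replicate 1 list, and both peaks ended at the same base. The remaining pair of protein-gene copies had 1 peak each: MTCO2P2 on chromosome 18 scored 6 in HSPA8 replicate 1, and MTATP6P28 on chromosome 2 scored 5 in HSPA1A replicate 1. The peak on MTATP6P28 corresponds to mitochondrial positions 8605 to 8638, under a mitochondrial peak of score 40. These single-list genes were low in their lists.

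The copies of RNR2 gave a different picture from the protein-gene copies. The 10 MTRNR2L genes held 88 peaks: 37 and 12 for HSPA1A, 37 and 2 for HSPA8. Each of the 8 with several peaks had them on one strand, as did 10 of the 13 protein-gene copies with several peaks. For the 5 MTRNR2L genes that could be placed, the 19 peaks lay on the strand of the ribosomal RNA itself. RNR2 itself was densely covered: peaks covered 90.2% and 72.9% of its plus strand with HSPA1A as bait and 93.8% and 64.1% with HSPA8. It kept most of its coverage in the replicate 2 lists, where the chromosome 1 stretch did not.

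MTRNR2L8 on chromosome 11 had the highest score of the set in 3 lists and shared it with MTRNR2L2 in HSPA8 replicate 2. Its best peak scored 198 and 15 for HSPA1A replicates 1 and 2, and 142 and 8 for HSPA8 replicates 1 and 2. These best peaks lay at one place, starting 208 to 210 bp from the 5′ end of the gene as read on the strand of its peaks. It held 9, 3, 9 and 1 peaks in the same order.

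MTRNR2L2 on chromosome 5 scored 154 and 13 with HSPA1A and 98 and 8 with HSPA8. In HSPA1A replicate 1 and both HSPA8 lists its best peak started 203 to 205 bp from the 5′ end. In HSPA1A replicate 2 the best peak started at 90 bp, with one of score 12 at 205 bp. The leading place of MTRNR2L2 was thus within a few bp of that of MTRNR2L8, counted from each gene's own 5′ end.

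MTRNR2L12 on chromosome 3 had the most peaks, 11 and 4 for HSPA1A and 10 and 0 for HSPA8. Its best score was 69 in HSPA1A replicate 1, 10 in HSPA1A replicate 2 and 81 in HSPA8 replicate 1. The leading peak covered 219 to 309 bp from the 5′ end in HSPA1A replicate 1 and 227 to 312 bp in HSPA8 replicate 1, so it overlapped the leading place of MTRNR2L8. In HSPA1A replicate 1, 6 of the 9 peaks of MTRNR2L8 overlapped a peak of MTRNR2L12 on this distance scale, and 5 had both edges within 10 bp. In HSPA8 replicate 1 the counts were 6 of 9 and 3. In HSPA1A replicate 2 they were 2 of 3 and 0, and the best peak of MTRNR2L12 there (score 10) lay away from the leading place, at 95 to 130 bp. One such place lay 776 to 823 bp from the 5′ end of MTRNR2L8 and 775 to 828 bp from that of MTRNR2L12 in HSPA1A replicate 1, and 767 to 837 bp on both genes in HSPA8 replicate 1. The scores there were 35 and 37, and 36 on both. Scores at other shared places differed: at the leading place MTRNR2L8 scored 198 against 69 for MTRNR2L12 in HSPA1A replicate 1 and 142 against 81 in HSPA8 replicate 1. Near 482 to 523 bp the scores were 12 and 31 in HSPA1A replicate 1. Both genes are copies of one ribosomal RNA gene, and reads shared between them cannot be told apart here.

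**Figure D3:**
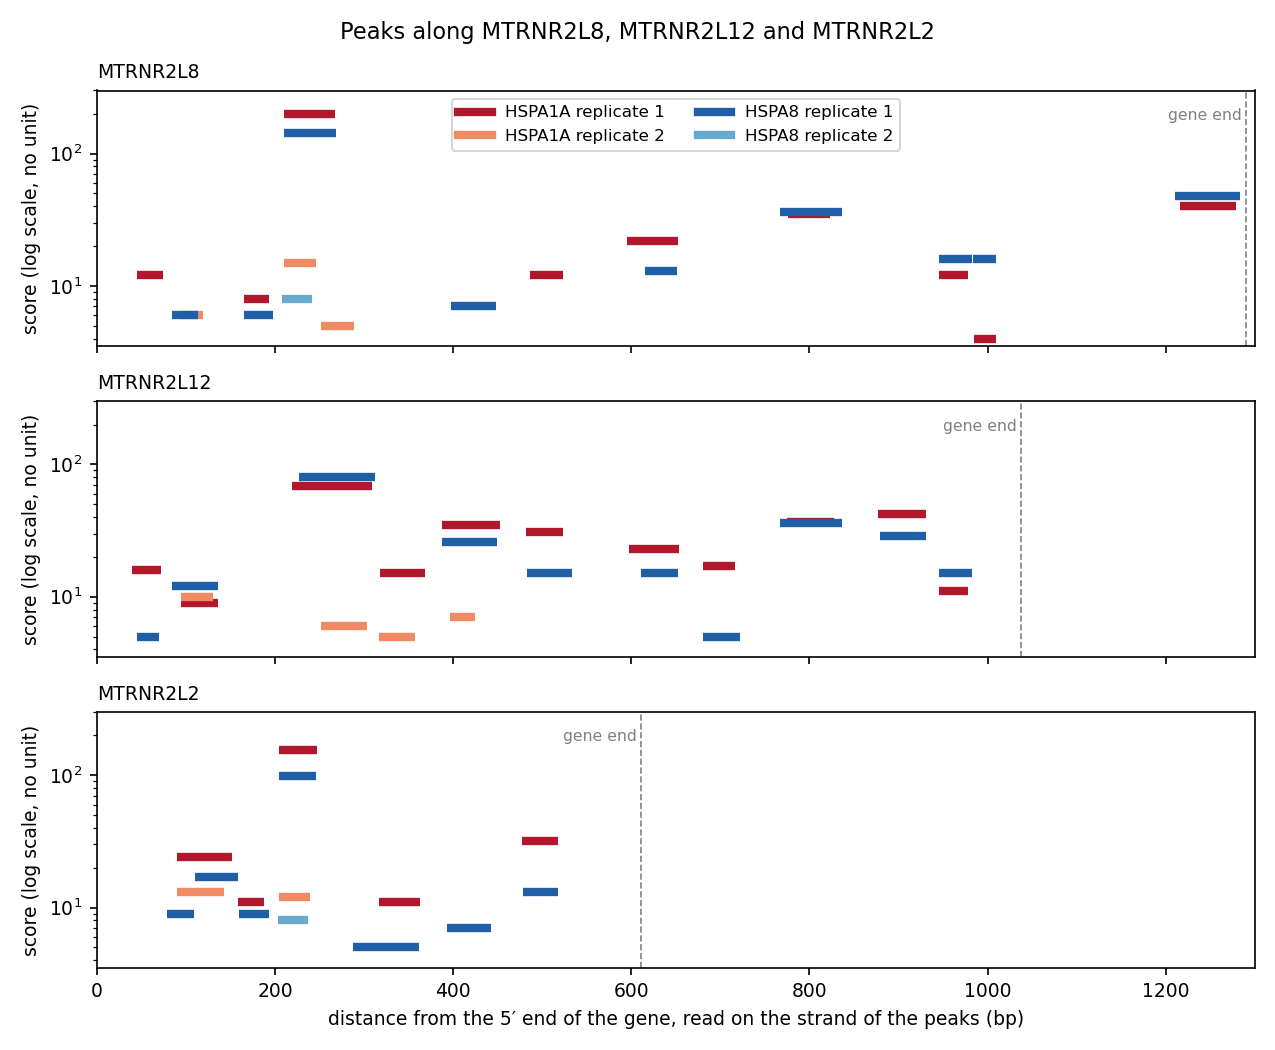
Peaks along MTRNR2L8, MTRNR2L12 and MTRNR2L2 by distance in bp from the 5′ end (read on the strand of the peaks), with the authors' score on a log axis without unit; each bar is 1 peak, colors mark the 4 lists and dashed lines the gene ends. All 3 genes carry their highest peak between 205 and 312 bp in both replicate 1 lists, and MTRNR2L8 and MTRNR2L12 share a bar at 767 to 837 bp in HSPA8 replicate 1.

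MTRNR2L9 on chromosome 6 scored 53 and 10 in HSPA1A replicates 1 and 2 and 38 in HSPA8 replicate 1, with no peak in HSPA8 replicate 2. MTRNR2L4 on chromosome 16 had 1 peak in each of 3 lists, with scores of 46 and 9 for HSPA1A and 23 for HSPA8 replicate 1. That peak corresponds to mitochondrial positions 2200 to 2232, which lie inside the highest-scoring RNR2 peak of both replicate 1 lists (2166 to 2314 and 2159 to 2346, with scores of 976 and 989). In HSPA1A replicate 2 the highest-scoring RNR2 peak, at 2229 to 2280 with a score of 224, shared 1 bp with the place of the copy's peak.

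MTRNR2L1 on chromosome 17 had best scores of 19, 6 and 16 in HSPA1A replicates 1 and 2 and HSPA8 replicate 1. Its last peak in the replicate 1 lists ended at the places of positions 3234 and 3237, next to the end of RNR2 at 3229. MTRNR2L6 on chromosome 7 scored 22 and 17, and MTRNR2L10 on chromosome X scored 21 in both replicate 1 lists. MTRNR2L3 and MTRNR2L11 had 1 peak each, in HSPA1A replicate 1 (scores 6 and 5). MTRNR2L5, MTRNR2L7 and MTRNR2L13 had no peak, although they are among the longest of the 13, at 1687, 1537 and 1463 bp.

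Each peak on a copy was set beside the mitochondrial peak of the same list that overlapped its place and had the nearest edges. On the chromosome 1 copy 14 of 58 peaks had both edges within 5 bp of a mitochondrial peak, on the other protein-gene copies 7 of 16, and on the placed MTRNR2L genes 1 of 19. The same score as well was found for 8, 4 and 0 of them. The MTRNR2L genes were placed only from neighbours, the nearest 64 to 1232 bp away, while most genes of the chromosome 1 copy were placed by their own ends. The edge counts of these groups are therefore not like for like, and placement error was not tested. The mitochondrial score was a median of 1.65 times the score of the copy on chromosome 1 (range 0.627 to 10.4) and 1.31 times on the other copies (1 to 8). It was 34.9 times on the 5 placed MTRNR2L genes (1.5 to 98.2, over 18 peaks). MTRNR2L8, MTRNR2L2, MTRNR2L12 and MTRNR2L9, which reached the highest scores of that family, were not placed and do not enter this value. By list, the median on the chromosome 1 copy was 1.45 in HSPA1A replicate 1 and 1.75 in HSPA8 replicate 1, and on the other copies 2.34 and 1.63, so these groups had no fixed order. On the placed MTRNR2L genes it was 24.03 and 50.75. The compared peaks differed in width, with medians of 74 bp on the chromosome 1 copy beside 90.5 bp on the mitochondrial chromosome. On the other copies these were 48 and 60 bp, and on the placed MTRNR2L genes 34 and 176.5 bp. The ratios are thus of whole peaks of unlike width. Over the 92 pairs the copy scored lower in 69, the same in 16 and higher in 7, or higher in 4 when the highest-scoring overlapping mitochondrial peak was taken. Among the MTRNR2L pairs the copy scored lower in 18 of 18. Pairs from one stretch are not independent, so no test was made of this contrast.

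**Figure D4:**
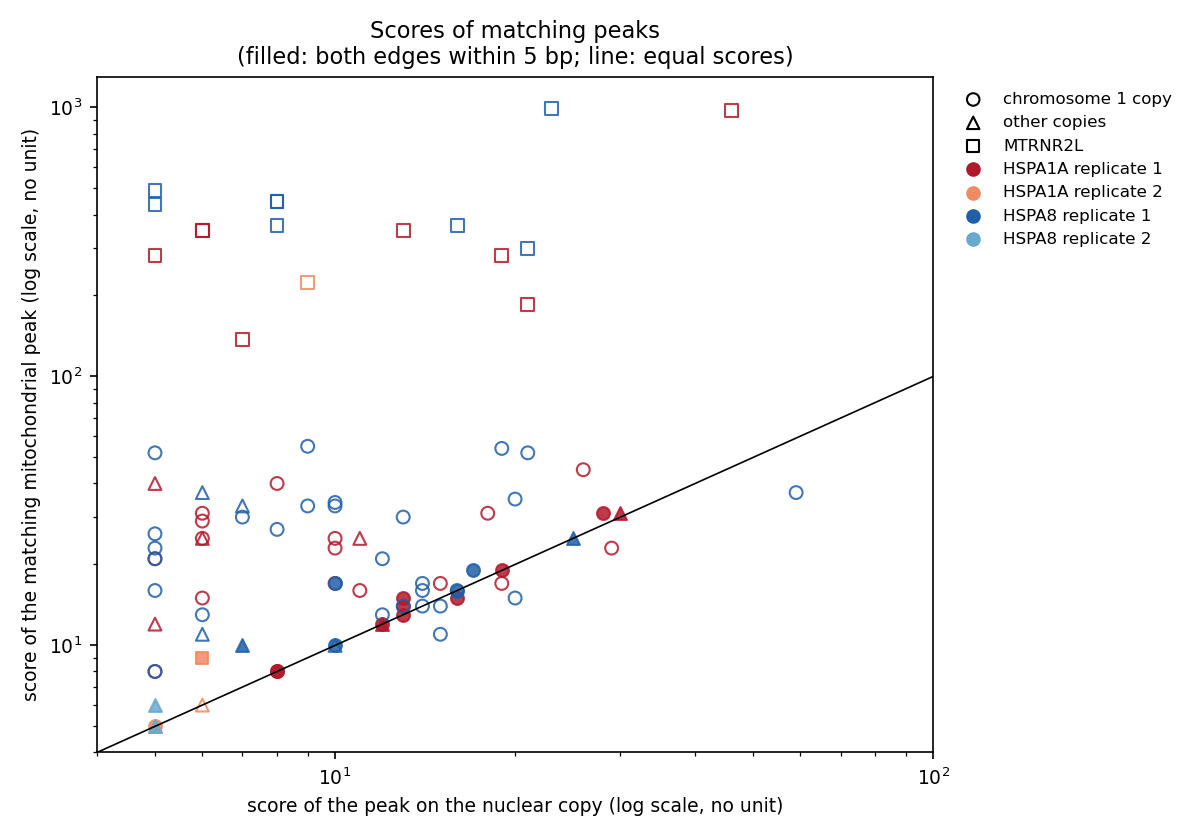
Authors' score of each placed peak on a nuclear copy (x axis) against the score of the matching mitochondrial peak of the same list (y axis), both on log axes without unit; shapes mark the kind of copy, colors the list, filled symbols have both edges within 5 bp, and the line marks equal scores. Of the 92 pairs 16 sit on the line and 7 below it. The squares of the 5 placed MTRNR2L genes stand highest except one near the line, with a median ratio of 34.9.

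The rule that chose the set has an edge. Just inside it were MTND6P3 and MTATP8P2, with overlaps of 7 bp or less. Just outside it were 7 genes of the same families with a peak within 100 bp. MTCYBP35 and MTCYBP18 had one at 3 bp and MTND6P4 at 4 bp, and MTND4LP5, MTND4LP1, MTND1P15 and MTCO1P53 at 63, 65, 70 and 95 bp.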

How the data were processed

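Per the labels, random adapter tags were used to merge PCR duplicates. The submitters' processing notes name GRCh38, Trim Galore 0.4.4, FastQC, STAR 2.6.0b and deepTools; the peak caller and its threshold are not given in the sources used here. The deposited lists give each peak's position, strand and a whole-number score by the authors, one list per replicate; the score was used only within a list, or between peaks of one list. GFP libraries were not analysed here.

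Peaks were set against the RefSeq gene table (GRCh38.p14), which holds no strand or exons, so strand was ignored in assigning peaks. Positions are 1-based. A copy was placed on the mitochondrial chromosome from family genes within 15 kb whose length matched the source gene within 15 bp, requiring at least 80% of the gene inside its source. The named genes are those in at least 2 lists, described by place and family, and the single-list genes were named to account for the whole set. The genes and lists were chosen with earlier results of these data known; the placement, the 5 bp tolerance and the comparison of distances along the MTRNR2L genes were chosen after seeing the data. The bait difference was tested by exact permutation of the lists, and p-values measure only the spread between these replicates. The procedures were tested on simulated peaks: 60 of 60 planted genes and 160 of 160 placements were recovered. The simulated copies were full length at a constant offset, while 9 of the 25 genes were full length. These counts therefore check the code and do not measure placement error on real copies. The scripts ran under Python 3.11.15, with pandas 2.3.3 for tables, numpy 2.4.6 and scipy 1.17.1 for arithmetic, and figures by matplotlib 3.10.9.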

Additional observations from a re-analysis of the deposited data

How the results depend on the processing

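The 11 results gave 64 pairs of a result and an alternative setting, of which 3 reversed, 8 moved beyond the bound set for them and 53 did not. For the bait difference this judges only sign and threshold, and for counts a change within 1.5 times. Some of the 53 could not have changed. Allowing either strand or a distance of 100 bp only loosened a mitochondrial match already found in 38 of 38 pairs of a gene and a list. The bait difference of 0.294 percentage points became -0.0319 without the MTRNR2L genes and 0.0951 over the chromosomes of all 4 lists, and ranged from -0.838 to 1.43 when each replicate was left out in turn, below 0 without HSPA1A replicate 1 (-0.599) or HSPA8 replicate 2 (-0.838). With the replicate number as a block the value stayed 0.294 (p = 0.5 by exact sign-flip permutation, the lowest that 2 pairs allow); with 2 numbers the labels do not show that the numbers pair the samples. Keeping peaks at or above the median score of their list left 2 genes in HSPA1A replicate 2 and 0 in HSPA8 replicate 2, so that 2 were in both HSPA1A lists and 0 in both HSPA8 lists. Requiring the same strand in both replicates left 2 genes for HSPA8. The number of genes in any list ranged from 22 to 25 without each replicate and was 18 at the stricter score. Counting a peak anywhere on the source gene, for all 25 genes, gave 98.2% of pairs (56 of 57). A tolerance of 2 bp, chosen after seeing the data, left 14 peaks with matching edges. Taking the highest-scoring overlapping mitochondrial peak, also chosen after seeing the data, left 4 peaks in place of 7 with a higher score on the copy. Transfer RNA pseudogenes could not be added, since the gene table has no such symbols of the planned form, and that alternative was not run. Nuclear-encoded mitochondrial tRNA genes were added in its place, which was not planned. The share of every list and the difference of 0.294 stayed the same. This setting counts among the 53, although it changed no value and so is no check of the difference. Leaving out a replicate gives no count for both replicates of a bait. Depth is unknown, and with 2 lists a bait the exact permutation of bait labels cannot go below 0.33.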

Other observations

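The chromosome 1 copy also carried peaks between its genes, outside the 25. There were 4 in HSPA1A replicate 1 and 6 in HSPA8 replicate 1. Of these, 1 peak of HSPA8 replicate 1, with a score of 7 on the copy of TRNW, the tryptophan tRNA gene, had no plus-strand mitochondrial peak at its place in that list. The others had a mitochondrial peak of the same list at their place on their own strand. The copy of TRND, the aspartate tRNA gene, had a peak of score 6 in that list whose mitochondrial counterpart spans the same bases with the same score.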
